A study of Mus musculus with 24 samples.

Results

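Type I interferon-stimulated genes were followed as a group of 35 listed genes, among the 22609 gene symbols counted in each of 24 mouse RNA sequencing libraries. A gene was kept in a tissue when it had 10 or more counts in 3 or more of its libraries. By this rule all 35 genes were kept in paw skin and in dorsal root ganglia (DRG, the clusters of sensory neuron bodies beside the spine), and 33 were kept in spinal cord, where Oas3 and Mx1 were not kept. The animals were male C57 mice aged 8 to 12 weeks, with no transgene named. They received 10 µg per injection, into a hind paw, of an agonist antibody to the lymphotoxin beta receptor (LTβR) or of control IgG. The day-6 groups had received 2 agonist injections, the day-1 groups 1 agonist injection, and the IgG groups were taken 1 day after IgG. Day 6 therefore differs from the other groups in time and in number of injections, and the labels count its 6 days in different ways. Paw skin (punch biopsies) and DRG each had a day-6, a day-1 and an IgG group, while spinal cord (its lumbar part) had a day-6 and a day-1 group, with 3 libraries per group. A spinal cord IgG group was not analysed here.

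Type I interferons, a family that includes interferon beta and the interferon alphas, bind a receptor on nearly all cells and activate the kinases Jak1 and Tyk2. The kinases phosphorylate Stat2, which acts with Irf9 at the interferon-stimulated response element in the promoters of antiviral genes. LTβR belongs to the tumour necrosis factor receptor family and signals mainly through NF-κB, including the non-canonical arm with its subunit Relb. The 35 genes encode nucleic acid sensors (Ifih1, Ddx58, Dhx58, Zbp1), transcription factors (Irf7, Irf9, Stat2), the ISG15 and ubiquitin system (Isg15, Usp18, Herc6, Trim25) and the RNA-binding Ifit1, Ifit2 and Ifit3. Oas1a, Oas2 and Oas3 belong to the oligoadenylate synthetases, enzymes that activate RNase L, and Oasl1 and Oasl2 are their relatives. The others act at membranes or as GTPases (Mx1, Mx2, Bst2, Ifitm3), on nucleotides or translation (Rsad2, Cmpk2, Eif2ak2, Samd9l), as ADP-ribosyltransferases with the ligase Dtx3l (Parp9, Parp12, Parp14), or in other ways (Ifi35, Ifi44, Rtp4, Xaf1).

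In units of 1000000 reads counted in genes, paw libraries held 24.2 to 41.0, DRG libraries 21.6 to 34.2 and cord libraries 15.7 to 26.3, the smallest being day-6 library 3 of spinal cord. The labelled tissues carried their own markers: 6 epidermal genes summed to between 47960 and 89580 CPM (counts per 1000000 counts in the library) in paw libraries, and 9 sensory neuron genes to between 7282 and 8679 CPM in DRG libraries. In spinal cord, 10 neuronal and glial genes summed to between 4076 and 5144 CPM. IgG library 1 of paw held little muscle RNA, with 203 CPM over 10 muscle genes, where the other 8 paw libraries held 4817 to 32750 CPM. The same paw library held the highest epidermal sum, 89580 CPM, and stood apart for the interferon-stimulated genes. Their mean centred log2 CPM was -0.63 in it, against -0.17 and -0.06 in the other IgG paws, and it was the lowest of the 9 paw libraries in 23 of 35 genes, against 28.1% of all genes. Each paw comparison with IgG uses it, and without it the median log2 fold change of the 35 genes was 0.29 on day 6 and 0.33 on day 1, against 0.47 and 0.40 with it. In DRG the 10 muscle genes summed to 4710 and 5214 CPM in IgG libraries 2 and 3 and to 6328 CPM in day-1 library 1. The other DRG libraries held 71.1 to 541 CPM. The median log2 fold change of these muscle genes over IgG in DRG was -3.65 on day 6 and -0.55 on day 1, with 0 called (edgeR). The part of this RNA in the DRG comparisons was not tested. IgG library 1 of DRG had 31.5% of its uniquely placed reads outside annotated features. Relb, which served as the readout of the agonist, had a log2 fold change against IgG of 0.77 ± 0.12 on day 6 (SE, adjusted p = 0.0314, edgeR) and 1.41 ± 0.12 on day 1 (adjusted p = 0.0157) in paw. In DRG the log2 fold change of Relb was 0.17 ± 0.13 on day 6 (adjusted p = 0.995) and 0.88 ± 0.12 on day 1 (adjusted p = 0.0228).

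Interferons themselves were almost without reads. The 19 interferon genes listed (type I, Ifng and type III) summed to 0 to 7 counts in a paw library, 0 to 2 in a DRG library and 0 to 3 in a spinal cord library, and 0 of 19 had enough counts for a test in any tissue. The highest single count was 6, for Ifnk, an interferon of keratinocytes, in day-6 library 2 of paw. Ifnb1, interferon beta, had 1 read in the 24 libraries together. The interferon alpha genes are near-identical copies, and reads that map to several places were not counted, so counts of 0 do not show that their RNA was absent. Ifnar1, a chain of the type I interferon receptor, had 67.7 ± 7.9 CPM in day-6 paw, 58.1 ± 2.1 CPM in day-1 paw and 50.4 ± 4.2 CPM in IgG paw (SD, n = 3 each), with an adjusted p of 0.142 on day 6 against IgG and 0.502 on day 1 (edgeR); DESeq2 called it higher on day 6 and limma voom did not.

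Many of the genes with a promoter entry share a sequence of the interferon-stimulated response element. The genes were listed as interferon-stimulated, so a larger share than over all genes is no independent result of these data. RefSeq promoters (GRCm38.p6, 250 bases before to 50 after the start) were available for 26 of the 35 genes, and Dhx58, Mx1, Mx2, Oas2, Parp14, Parp9, Rtp4, Usp18 and Zbp1 had no entry. The core of the interferon-stimulated response element was searched as GAAANNGAAA on both strands, where matches may overlap. It was present in 12 of the 26 (Bst2, Ddx58, Eif2ak2, Ifih1, Ifit1, Ifit3, Ifitm3, Isg15, Oas1a, Oas3, Rsad2 and Stat2), against 3.99% of all 27025 genes with a promoter in the table. The κB motif, searched by its usual consensus on both strands, was present in 5 of the 26 (Bst2, Ifit2, Ifitm3, Oas3 and Oasl1), against 9.55% of all genes. A match is a run of letters and not a measured binding site, and a window without a match holds only no such letters. The 150 bases before the start of Isg15, Ifit1 and Rsad2 are shown because each holds the first motif, in capitals, in a different arrangement. In Isg15 (chr4:156200819-156200968, minus strand) 3 matches overlap, in Ifit1 (chr19:34640739-34640888, plus strand) 2 lie apart on the opposite strand, and Rsad2 (chr12:26456453-26456602, minus strand) has 1 on the opposite strand.
Isg15: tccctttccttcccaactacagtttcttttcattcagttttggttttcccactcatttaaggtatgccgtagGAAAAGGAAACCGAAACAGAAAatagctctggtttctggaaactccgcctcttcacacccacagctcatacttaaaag
Ifit1: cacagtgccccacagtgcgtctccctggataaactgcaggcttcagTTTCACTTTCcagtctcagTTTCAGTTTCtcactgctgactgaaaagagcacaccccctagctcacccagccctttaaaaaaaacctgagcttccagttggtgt
Rsad2: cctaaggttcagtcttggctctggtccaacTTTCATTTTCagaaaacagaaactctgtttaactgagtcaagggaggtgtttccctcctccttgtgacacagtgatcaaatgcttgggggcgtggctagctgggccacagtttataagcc

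Across tissues, the genes differed in where they were abundant. CPM were normalised within each tissue, so these levels are set side by side without a test. Stat2 lay between 91.5 and 128 CPM in DRG libraries, between 31.6 and 47.0 CPM in spinal cord and between 17.8 and 29.2 CPM in paw. Cmpk2, a mitochondrial nucleotide kinase, lay between 33.6 and 62.9 CPM in DRG and between 48.7 and 54.1 CPM in spinal cord, against 1.33 to 7.18 CPM in paw. Ifitm3, which restricts the entry of viruses into cells, ran the other way, with 89.7 to 158 CPM in paw, 35.4 to 77.0 CPM in DRG and 24.6 to 55.3 CPM in spinal cord. Ifit1 lay between 18.4 and 75.1 CPM in DRG, between 3.99 and 24.7 CPM in spinal cord and between 1.17 and 8.49 CPM in paw. Some genes were low in paw: Oas1a had 9 to 117 counts per library there, Ifi44 had 9 to 65 and Oas3 had 4 to 84, so counting error weighs on them.

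**Figure D1:**
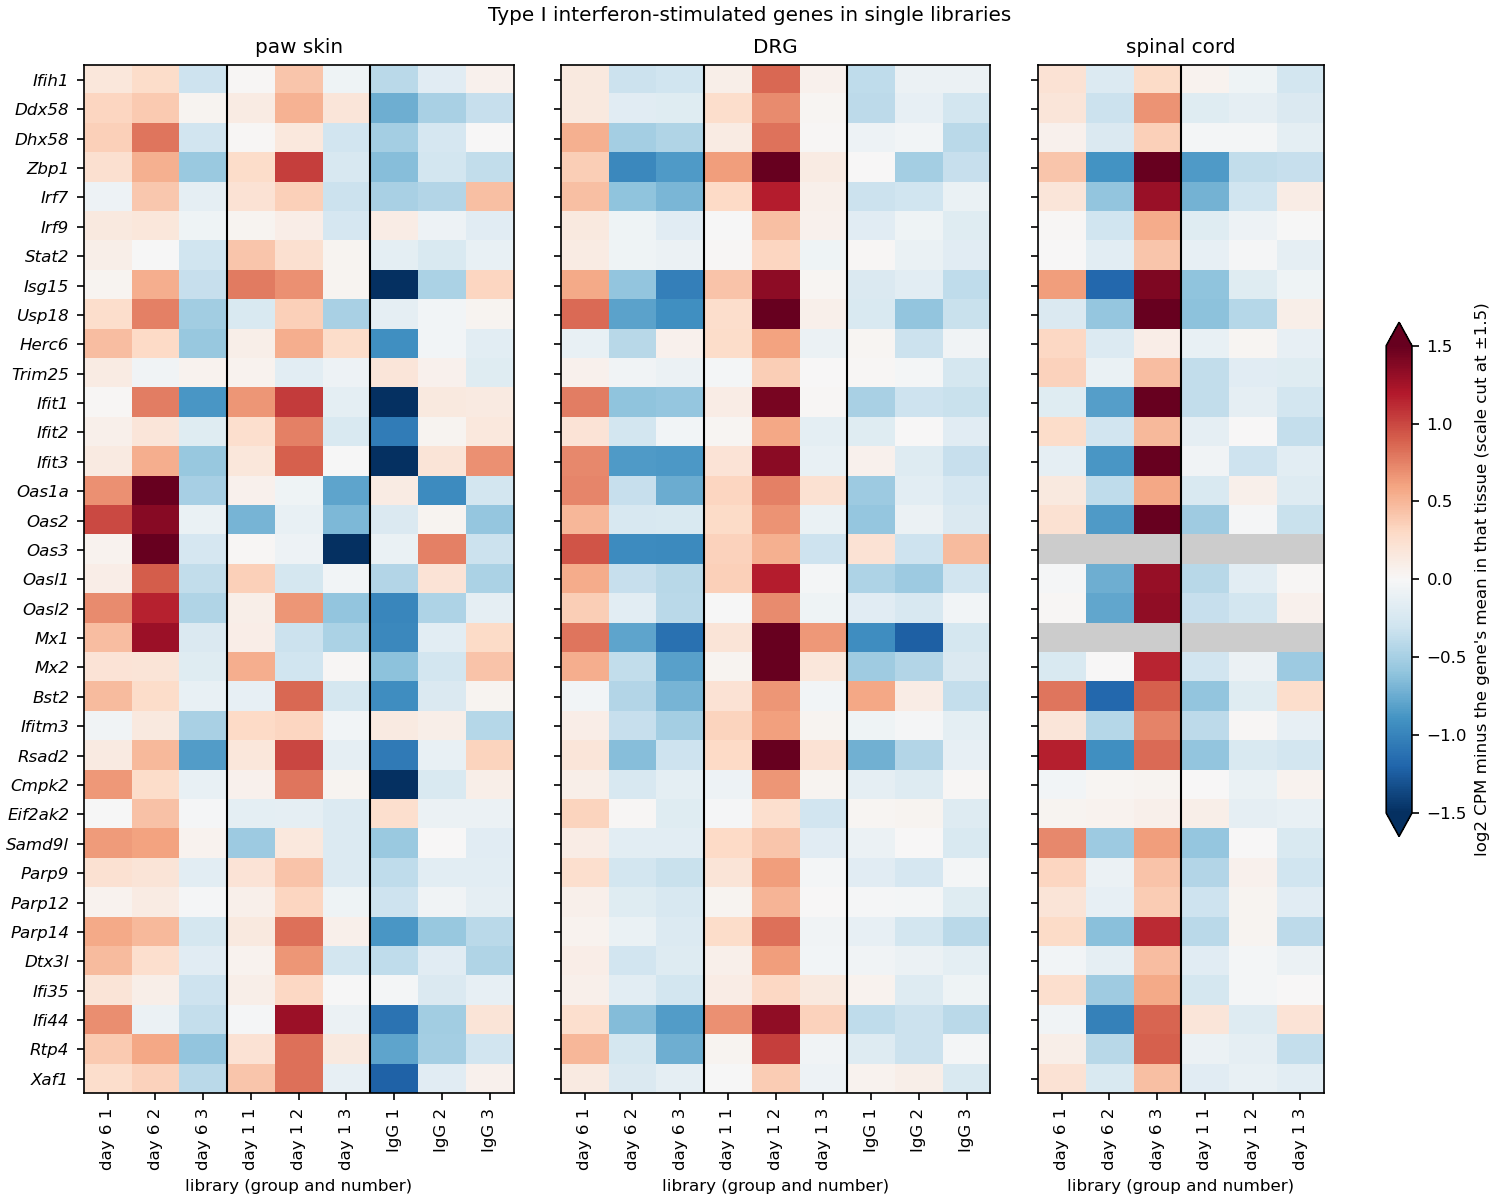
Heat map of log2 CPM of the 35 genes (rows) in each library (columns), as the difference from the gene's mean in that tissue, for paw skin, DRG and spinal cord with day 6, day 1 and IgG from left to right. Red is above and blue below the mean, grey marks the genes not tested in spinal cord, and day-1 library 2 of DRG and day-6 library 3 of spinal cord stand out in red.

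In paw skin on day 6, Ddx58, which encodes the viral RNA sensor RIG-I, and Parp14 were higher than in IgG paws in every library, and 34 of the 35 genes had a log2 fold change above 0, against 46.7% of all genes tested. No gene of the group passed the threshold. The median log2 fold change of the group was 0.47, against -0.01 over all 15287 genes tested. These genes tended to move together within a library, so counts of signs, here and below, are not counts of independent genes. By adjusted p, 0 of 35 were called, where 0.706% of all genes were (edgeR, threshold 0.05). Limma voom called 0 of 35, with 129 called over all genes. DESeq2 called 2 of 35 (Ddx58 and Parp14), with 509 called over all genes. At an unadjusted p under 0.05, 5 of 35 were higher (Ddx58, Parp14, Oas2, Samd9l and Oasl2), against 6.12% of all genes, and 0 of 35 were lower, against 3.62%. The 3 day-6 libraries lay above the 3 IgG libraries in 4 of 35 genes (Ddx58, Samd9l, Parp12 and Parp14), against 8.22% of all genes, and below them in 0 of 35, against 5.87%. Single libraries moved these values: the median was 0.25 without day-6 library 2, with 27 of 35 genes above 0, and 0.29 without IgG library 1. Without day-6 library 3 it was 0.70, and 12 of 35 genes had an unadjusted p under 0.05, against 10% of all genes in that fit (edgeR). Without day-6 library 1 or 2 the number was 3 of 35, against 6.38% and 7.51% of all genes. In bulk tissue, more cells of a type and more RNA per cell cannot be told apart, nor can fewer cells and less RNA per cell.

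Ddx58 had 29.5, 31.2 and 24.4 CPM in day-6 paws, 25.7, 34.0 and 26.9 CPM in day-1 paws and 14.2, 16.8 and 18.5 CPM in IgG paws. Every agonist library lay above every IgG library, and the agonist days overlapped. Its log2 fold change against IgG was 0.78 ± 0.15 on day 6 (SE, adjusted p = 0.0689, edgeR) and 0.81 ± 0.15 on day 1 (adjusted p = 0.326), and these comparisons share the IgG libraries. With DESeq2 the adjusted p were 0.000215 on day 6 and 0.00067 on day 1, and over all alternatives they ran to 0.264 on day 6 and 0.799 on day 1.

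Parp14, an ADP-ribosyltransferase, had 38.3, 36.2 and 21.5 CPM in day-6 paws, 28.4, 45.7 and 27.2 CPM in day-1 paws and 14.0, 17.4 and 19.4 CPM in IgG paws. The groups of agonist libraries again stood clear of the IgG libraries, with day-6 library 3 nearest to them. Its log2 fold change was 0.92 ± 0.27 on day 6 (adjusted p = 0.235, edgeR) and 1.00 ± 0.27 on day 1 (adjusted p = 0.364). Parp12, of the same family, had 22.4, 23.7 and 21.3 CPM on day 6, 22.9, 27.1 and 20.7 CPM on day 1 and 17.5, 20.9 and 19.6 CPM with IgG, so that day 6 lay just above IgG and day 1 overlapped it. Parp9 and Dtx3l, which form a complex, overlapped IgG on both days.

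Of the oligoadenylate synthetase family, Oas1a, Oas2 and Oasl2 had their highest paw values in day-6 libraries 1 and 2 and not in library 3, and Oas3 and Oasl1 had theirs in library 2. Oas2 had 6.55, 8.52 and 3.04 CPM in day-6 paws, 1.99, 3.02 and 2.03 CPM in day-1 paws and 2.82, 3.37 and 2.16 CPM in IgG paws. Day 6 thus overlapped IgG and lay just above day 1. Its log2 fold change on day 6 was 1.12 ± 0.37 against IgG (adjusted p = 0.317, edgeR) and 1.36 ± 0.37 against day 1 (adjusted p = 0.150). Oasl2 had 8.24, 11.2 and 3.63 CPM on day 6, 5.31, 7.95 and 3.29 CPM on day 1 and 2.50, 3.62 and 4.56 CPM with IgG, and Oas1a had 1.29, 2.66 and 0.528 CPM on day 6, 0.814, 0.738 and 0.421 CPM on day 1 and 0.846, 0.370 and 0.629 CPM with IgG. In the comparison of day 6 with day 1, all 5 genes of the family had a positive log2 fold change, with a median of 1.17, while the 3 Ifit genes had negative ones, between -0.48 and -0.28.

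Samd9l, which restricts translation in infected cells, had 39.3, 38.5 and 26.3 CPM in day-6 paws, 17.4, 28.3 and 22.0 CPM in day-1 paws and 17.2, 25.5 and 22.6 CPM in IgG paws. Day-6 libraries 1 and 2 were well above the rest, and library 3 was just above the highest IgG library. Its log2 fold change on day 6 was 0.67 ± 0.23 against IgG (adjusted p = 0.326, edgeR) and 0.62 ± 0.23 against day 1 (adjusted p = 0.275). Rtp4, an interferon-inducible chaperone of receptors, had 6.21, 7.06 and 3.11 CPM on day 6, 5.48, 8.35 and 5.20 CPM on day 1 and 2.70, 3.29 and 3.85 CPM with IgG. Its day-1 libraries lay above IgG and its day-6 libraries did not all do so.

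In paw skin on day 1, Ddx58, Parp14, Rtp4, Zbp1, Stat2, Herc6 and Ifi35 were higher than in IgG paws in every library. A log2 fold change above 0 was found for 29 of 35 genes, against 50.8% of all genes, with a median of 0.40 against 0.01. The adjusted p called 0 of 35, against 0.00654% of all genes (edgeR). Limma voom called 0 of 35, with 1 called over all genes. DESeq2 called 2 of 35 (Ddx58 and Parp14), with 209 called over all genes. Unadjusted, 7 of 35 were higher at p under 0.05 (Ddx58, Parp14, Stat2, Rtp4, Parp12, Zbp1 and Parp9), against 4.01% of all genes, and 0 were lower, against 6.63%. The groups stood apart with day 1 above IgG in 7 of 35 (Ddx58, Zbp1, Stat2, Herc6, Parp14, Ifi35 and Rtp4), against 6.4% of all genes, and below IgG in 1 of 35 (Eif2ak2), against 8.6%. Without day-1 library 2 the median was 0.20, and 3 of 35 had an unadjusted p under 0.05, against 6% of all genes in that fit (edgeR). That number was also 3 without day-1 library 1 and without IgG library 1, against 6.16% and 5.03% of all genes.

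Stat2, the factor that carries type I interferon signals, had 23.2, 21.8 and 17.8 CPM in day-6 paws, 29.2, 25.9 and 22.5 CPM in day-1 paws and 19.8, 18.6 and 20.3 CPM in IgG paws. It lay above IgG on day 1 and around IgG on day 6. Its log2 fold change was 0.40 ± 0.13 on day 1 against IgG (adjusted p = 0.400, edgeR) and -0.30 ± 0.13 on day 6 against day 1 (adjusted p = 0.352). Zbp1, a sensor of Z-form nucleic acids, had 2.43, 3.01 and 1.37 CPM on day 6, 2.50, 4.26 and 1.72 CPM on day 1 and 1.29, 1.69 and 1.57 CPM with IgG, at the low end of the range. Eif2ak2, the kinase PKR that halts translation, had 22.7, 31.1 and 22.6 CPM on day 6, 20.7, 20.8 and 19.8 CPM on day 1 and 27.2, 21.5 and 21.6 CPM with IgG. The 3 day-1 values were close together and just below the IgG values.

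Between the agonist days in paw, the genes were divided. Of 35, 13 had a log2 fold change above 0 for day 6 over day 1, against 48.6% of all genes, and the median was -0.06 against -0.01. No gene was called by adjusted p (0 of 35, against 1.03% of all genes, edgeR). Limma voom called 0 of 35, with 623 called over all genes. DESeq2 called 1 of 35, Oas2, with 737 called over all genes. At p under 0.05 before adjustment, 2 of 35 were higher (Oas2 and Samd9l), against 8.57% of all genes, and 1 was lower (Stat2), against 5.41%. Day 6 lay above day 1 without overlap in 2 of 35 (Oas2 and Eif2ak2), against 12.7% of all genes, and below it in 0 of 35, against 9.57%. The sign of the median turned without day-1 library 2 (0.12, with 27 of 35 above 0) and without day-6 library 3 (0.08, with 24 of 35 above 0), and without that day-6 library Oas2 was called (adjusted p = 0.0452, 0.0167 to 0.520 over the alternatives). Mx1, an antiviral GTPase, had 2.17, 3.89 and 1.34 CPM on day 6, 1.69, 1.24 and 1.11 CPM on day 1 and 0.765, 1.40 and 1.93 CPM with IgG. Day-6 libraries 1 and 2 held the highest of its values in paw.

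The paw groups also differed in immune cell RNA. The 14 monocyte and macrophage markers summed to between 1029 and 1617 CPM on day 6, between 337 and 546 CPM on day 1 and between 383 and 519 CPM with IgG. Against IgG on day 6, 10 of the 14 were called higher (edgeR), and 0 of the 14 were at 0 in all paw libraries. Within day 6, library 3 had the lowest sum, and it had the lowest level of the 3 in 34 of the 35 interferon-stimulated genes, against 35.8% of all genes. The other libraries were ordered differently: the macrophage sum was 1617 CPM in library 1 and 1528 CPM in library 2. Library 2 was the highest in 23 of the 35 genes, against 25.6% of all genes, and library 1 in 12, against 42.1%. On day 1 the macrophage sums overlapped those of IgG, and 0 of the 14 markers were called by edgeR, which also found 0 at an unadjusted p under 0.05, as did limma voom and DESeq2. The 7 neutrophil markers summed to between 14.1 and 130 CPM on day 6, between 19.7 and 63.4 CPM on day 1 and between 44.7 and 389 CPM with IgG. Other immune lists moved with day 6 as well: 7 conventional dendritic cell markers summed to between 17.2 and 21.8 CPM on day 6, between 10.6 and 14.6 CPM on day 1 and between 9.86 and 11.6 CPM with IgG. The 10 T and NK cell markers summed to between 3.51 and 5.17 CPM on day 6, between 1.49 and 2.31 CPM on day 1 and between 1.93 and 2.54 CPM with IgG. The 7 markers of the microglia list, genes that macrophages also express, summed to between 115 and 122 CPM on day 6, between 78.4 and 83.2 CPM on day 1 and between 77.8 and 89.6 CPM with IgG. The 8 genes listed as plasmacytoid dendritic cell markers summed to between 1803 and 2451 CPM on day 6. The sum was between 1852 and 2450 CPM on day 1 and between 1915 and 2261 CPM with IgG. Of these genes 2, Tlr7 and Irf8, were called higher on day 6 than with IgG. Tlr7 had 18.2, 14.2 and 11.3 CPM in day-6 paws, and Irf8 had less in each. Other genes of the list thus made up most of the sum, which is not read as a level of these cells. The part of these cells in the values above was not tested.

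**Figure D2:**
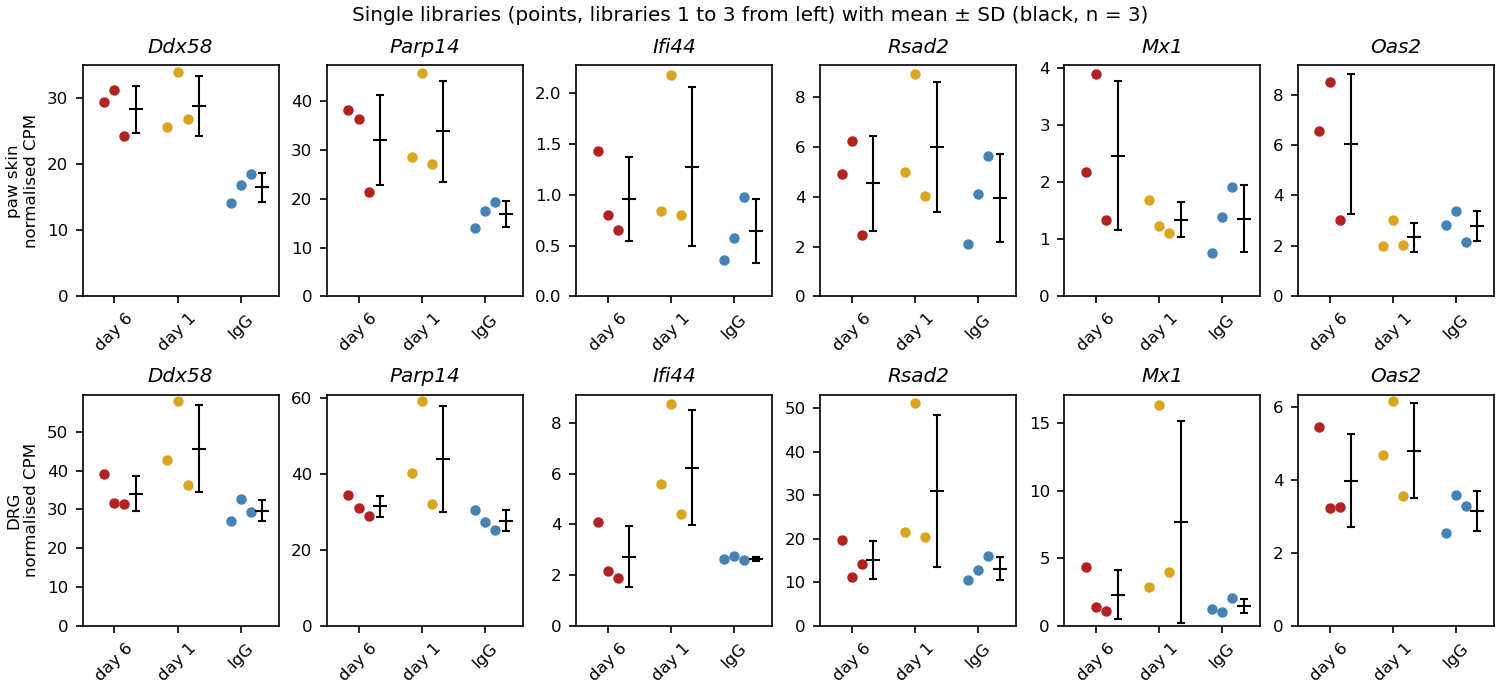
Normalised CPM of Ddx58, Parp14, Ifi44, Rsad2, Mx1 and Oas2 in paw skin (upper row) and DRG (lower row), for day 6, day 1 and IgG from left to right, with each library as a point and the mean ± SD in black (n = 3). Ddx58 and Parp14 on day 1 lie above IgG in both tissues, and a single day-1 library of DRG sets the high values of Rsad2 and Mx1.

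In DRG on day 1, all 35 genes had a log2 fold change above 0 relative to IgG, against 49.6% of all genes, between 0.04 for Eif2ak2 and 2.40 for Mx1. The log2 fold change was above 1 for 8 of them: Ifi44, Oasl1, Rsad2, Mx1, Zbp1, Mx2, Usp18 and Ifit1. The median was 0.54, against 0.00 over all 15461 genes tested. By adjusted p, 0 of 35 were called, where 0.168% of all genes were (edgeR). Limma voom called 0 of 35, with 19 called over all genes. DESeq2 called 3 of 35 (Ddx58, Parp14 and Ifi44), with 131 called over all genes. Before adjustment, 14 of 35 were higher at p under 0.05 with edgeR, against 4.66% of all genes, and 0 were lower, against 2.74%. Limma voom had 27 of 35 at an unadjusted p under 0.05, against 9.26% of all genes in either direction. DESeq2 had 20 of 35, against 6.7%. In 21 of 35 genes all day-1 libraries lay above all IgG libraries, against 7.55% of all genes, and in 0 of 35 below, against 5.65%. These 21 included 4 of 4 sensors, 4 of 4 genes of the PARP and Dtx3l group, 2 of 3 factors, 2 of 4 of the ISG15 and ubiquitin system, 1 of 3 Ifit genes, 2 of 5 of the Oas family, 3 of 4 of the Mx and membrane group, 1 of 4 of those acting on nucleotides or translation, and Ifi35 and Ifi44.

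Ifi44 had 4.10, 2.16 and 1.89 CPM in day-6 DRG, 5.57, 8.76 and 4.39 CPM in day-1 DRG and 2.63, 2.73 and 2.57 CPM in IgG DRG. All day-1 libraries lay above the narrow range of IgG, and day 6 straddled it. Its log2 fold change on day 1 was 1.24 ± 0.32 (adjusted p = 0.305, edgeR). With DESeq2 the adjusted p was 0.0214, and over the alternatives it ran to 0.699.

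The sensor Ddx58 had 39.3, 31.6 and 31.3 CPM in day-6 DRG, 42.6, 58.1 and 36.3 CPM in day-1 DRG and 27.1, 32.7 and 29.4 CPM in IgG DRG. As in paw, each day-1 library was above each IgG library, with a log2 fold change of 0.62 ± 0.17 (adjusted p = 0.366, edgeR). Parp14 had 34.4, 31.0 and 28.9 CPM on day 6, 40.3, 59.2 and 32.1 CPM on day 1 and 30.5, 27.4 and 25.2 CPM with IgG, and its log2 fold change on day 1 was 0.67 ± 0.21 (adjusted p = 0.474). For both genes the lowest day-1 library was close to the highest IgG library.

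Oasl1, which in mice limits the translation of Irf7, had 4.91, 2.59 and 2.48 CPM on day 6, 4.27, 7.57 and 3.26 CPM on day 1 and 2.40, 2.26 and 2.70 CPM with IgG in DRG. Irf9, the DNA-binding partner of Stat2, had 37.3, 32.4 and 30.0 CPM on day 6, 33.6, 46.1 and 35.3 CPM on day 1 and 30.0, 32.3 and 29.8 CPM with IgG. Their log2 fold changes on day 1 were 1.04 ± 0.35 for Oasl1 (adjusted p = 0.506, edgeR) and 0.32 ± 0.12 for Irf9 (adjusted p = 0.581). Rsad2, which encodes viperin, had 19.8, 11.2 and 14.1 CPM on day 6, 21.5, 51.1 and 20.3 CPM on day 1 and 10.6, 12.8 and 16 CPM with IgG. Mx1 had 4.36, 1.41 and 1.11 CPM on day 6, 2.84, 16.3 and 3.94 CPM on day 1 and 1.27, 1.02 and 2.06 CPM with IgG. In both, day-1 library 2 was far above the other day-1 libraries, and the standard errors were wide: the log2 fold change on day 1 was 1.23 ± 0.43 for Rsad2 (adjusted p = 0.588) and 2.40 ± 0.88 for Mx1 (adjusted p = 0.621).

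This library carried much of the day-1 difference in DRG. Day-1 library 2 was the highest of its group in 35 of 35 genes, against 28.0% of all genes. Averaged over the genes, its centred log2 CPM was 0.89, against 0.19 and 0.02 in day-1 libraries 1 and 3, and -0.19, -0.22 and -0.19 in the IgG libraries. Without it the median log2 fold change of day 1 over IgG was 0.23, and 31 of 35 genes were above 0. In that fit 4 of 35 had an unadjusted p under 0.05, against 5.74% of all genes, with 0 called (edgeR). Leaving out any other library of the comparison gave medians between 0.47 and 0.68. Between 4 and 20 genes then had an unadjusted p under 0.05, against 5.39% to 7.81% of all genes in those fits. The lowest numbers, 4 or 5, came with each IgG library left out, and 20 without day-1 library 3. The same library held more epidermal marker RNA, with 143 CPM over 6 genes against 45.4 to 49.4 CPM in the other day-1 libraries and 48.5 to 61.0 CPM in IgG DRG. The 14 macrophage markers summed to between 319 and 349 CPM on day 1 and between 277 and 313 CPM with IgG, and 0 of them were called by edgeR, with 9 higher and 2 lower at an unadjusted p under 0.05 (0 called by limma voom, 4 by DESeq2). The 7 neutrophil markers summed to 107, 42.0 and 63.1 CPM on day 1 and to 164, 109 and 232 CPM with IgG. Their part in the result was not tested.

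**Figure D3:**
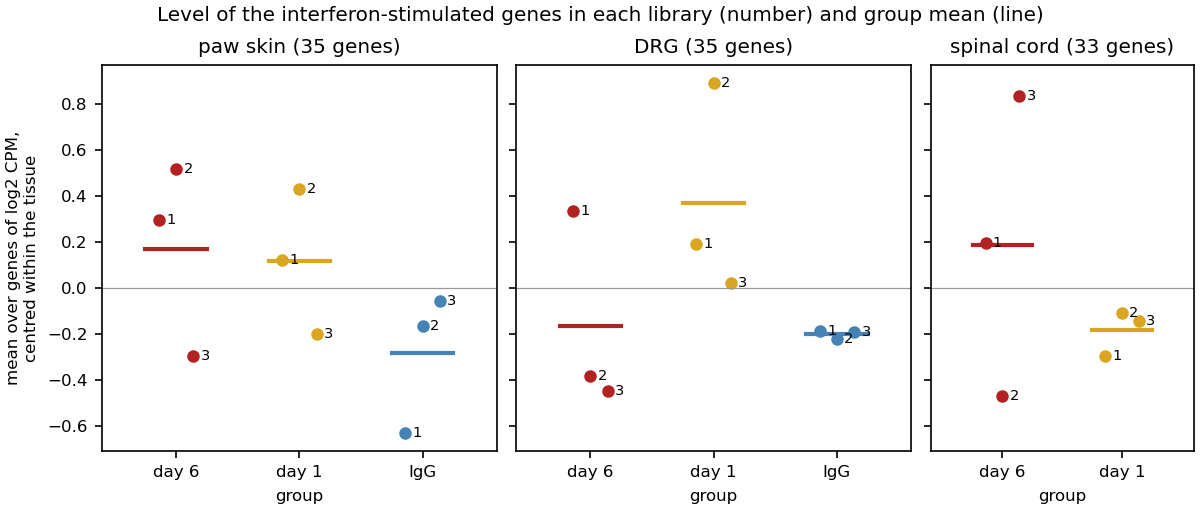
Mean over the interferon-stimulated genes of log2 CPM, centred on each gene's mean within the tissue, for each library (points with library numbers) and each group (lines), in paw skin, DRG and spinal cord. In DRG the day-1 points sit at 0.19, 0.89 and 0.02, above the IgG points, and day-6 library 1 is at 0.33 while the other day-6 libraries are at -0.38 and -0.45.

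In DRG on day 6 the group lay close to IgG. The median log2 fold change was 0.07 against 0.00 over all genes, and 26 of 35 genes were above 0, against 50.1%. The adjusted p called 0 of 35 and 0% of all genes (edgeR), and limma voom and DESeq2 called 0 of 35 too. Before adjustment, 0 of 35 were higher at p under 0.05, against 1.88% of all genes, and 0 were lower, against 1.72%, and limma voom and DESeq2 also found 0. The groups stood apart in 0 of 35 genes in either direction, against 5.16% of all genes with day 6 above and 3.72% with day 6 below. The smallest p belonged to Bst2, which tethers budding virus to cells, with 24.1, 18.2 and 15.2 CPM on day 6 and 37.1, 26.9 and 19.3 CPM with IgG, a log2 fold change of -0.53 ± 0.30 (adjusted p = 0.995). The highest Bst2 value came from IgG library 1. Oas2 had 5.45, 3.25 and 3.26 CPM on day 6 and 2.54, 3.60 and 3.28 CPM with IgG, and Oas1a had 2.50, 1.15 and 0.848 CPM on day 6 and 0.986, 1.31 and 1.22 CPM with IgG.

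Here too the libraries of the agonist group were unlike each other. Day-6 library 1 was the highest of its group in 34 of 35 genes, against 37.4% of all genes, and its mean centred log2 CPM was 0.33, against -0.38 and -0.45 in libraries 2 and 3. Libraries 2 and 3 were below the IgG libraries, which were at -0.19, -0.22 and -0.19. Without library 1 the median log2 fold change of day 6 over IgG was -0.15, with 29 of 35 genes below 0. Library 1 also had 88.9 CPM of epidermal markers, against 43.8 and 47.9 CPM in the other day-6 libraries. It had 323 CPM over 7 neutrophil markers, against 149 and 109 CPM in those libraries and 109 to 232 CPM in IgG DRG. Their part in the pattern was not tested.

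Day 6 was lower than day 1 in DRG for 34 of 35 genes, where 48.5% of all genes were above 0. The exception was Eif2ak2, at 0.07. The median log2 fold change was -0.44 against 0.00. None of the 35 was called by adjusted p (0, against 0.103% of all genes, edgeR). Limma voom called 0 of 35, with 14 called over all genes. DESeq2 called 2 of 35 (Ifi44 and Ifitm3), with 106 called over all genes. Unadjusted, 11 of 35 were lower at p under 0.05 with edgeR, against 4.03% of all genes, and 0 were higher, against 2.8%. Limma voom had 28 of 35 at an unadjusted p under 0.05, against 9.82% of all genes in either direction. DESeq2 had 16 of 35, against 6.45%. Day 6 lay below day 1 without overlap in 4 of 35 (Bst2, Rsad2, Ifi35 and Ifi44), against 6.47% of all genes, and above it in 0 of 35, against 6.01%. The median was -0.18 without day-1 library 2 and -0.71 without day-6 library 1. In these fits 2 and 26 of 35 genes had an unadjusted p under 0.05, against 5.09% and 5.25% of all genes (edgeR). Without day-6 library 2 or 3 the number was 2 or 3, against 6.54% and 7% of all genes. Ifi44 had a log2 fold change of -1.19 ± 0.32 (adjusted p = 0.388, edgeR). Ifi35, an interferon-induced leucine zipper protein, had 29.5, 25.0 and 23.1 CPM on day 6, 30.2, 34.6 and 30.9 CPM on day 1 and 29.1, 24.5 and 26.6 CPM with IgG, and its log2 fold change of day 6 over day 1 was -0.30 ± 0.10 (adjusted p = 0.556).

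The next genes by p overlapped between the days. Ifitm3 had 54.0, 39.8 and 35.4 CPM on day 6, 63.3, 77.0 and 51.8 CPM on day 1 and 48.1, 49.8 and 45.4 CPM with IgG. Zbp1 had 4.42, 1.70 and 1.86 CPM on day 6, 5.31, 10.1 and 3.71 CPM on day 1 and 3.43, 2.37 and 2.67 CPM with IgG. Herc6, the main ligase for ISG15 in mice, had 7.63, 6.13 and 8.64 CPM on day 6, 10.0, 12.6 and 7.75 CPM on day 1 and 8.41, 6.55 and 7.95 CPM with IgG. In each, day-6 library 1 or 3 reached the lowest day-1 library.

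In spinal cord, day 6 was compared with day 1. All 33 genes tested had a log2 fold change above 0, against 52.3% of all genes, with a median of 0.45 against 0.01 over 15096 genes. By adjusted p, 0 of 33 and 0% of all genes were called (edgeR). Limma voom and DESeq2 also called 0 of 33, with 0 and 64 called over all genes. Before adjustment, 2 of 33 were higher at p under 0.05 with edgeR (Trim25 and Parp9), against 5.39% of all genes, and 0 were lower, against 4.31%. Limma voom had 11 of 33 at an unadjusted p under 0.05, against 23.4% of all genes in either direction. DESeq2 had 3 of 33, against 8.85%. Day 6 lay above day 1 without overlap in 1 of 33, Trim25, against 8.17% of all genes, and below it in 0, against 8.21%.

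Trim25, a ubiquitin ligase that acts on RIG-I, had 15.6, 11.4 and 16.9 CPM in day-6 cord and 9.48, 10.9 and 10.7 CPM in day-1 cord, a log2 fold change of 0.50 ± 0.15 (adjusted p = 0.463, edgeR). Parp9 had 8.42, 6.29 and 9.03 CPM on day 6 and 4.93, 6.99 and 5.44 CPM on day 1, and Parp12 had 21.3, 17.1 and 24.3 CPM on day 6 and 15.0, 19.2 and 16.7 CPM on day 1. Rsad2 had 8.65, 1.97 and 6.95 CPM on day 6 and 2.48, 3.23 and 3.12 CPM on day 1. Zbp1 had 1.05, 0.370 and 3.41 CPM on day 6 and 0.382, 0.572 and 0.582 CPM on day 1, and Mx2 had 2.14, 2.55 and 5.68 CPM on day 6 and 2.06, 2.37 and 1.70 CPM on day 1. Oas3, which was not tested, had 1.37, 0.123 and 0.947 CPM on day 6 and 0.0382, 0.0817 and 0.0416 CPM on day 1, and Mx1, also not tested, had 0.637, 0.123 and 3.16 CPM on day 6 and 0.115, 0.286 and 0.332 CPM on day 1. Except for Trim25, Mx2 and Oas3, day-6 library 2 lay among the day-1 libraries or below them for these genes.

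The day-6 cord libraries were thus widely spread. Library 3 was the highest of its group in 30 of 33 genes, against 33.1% of all genes, and library 2 the lowest in 30 of 33, against 42.4%. The mean centred log2 CPM was 0.19, -0.47 and 0.83 in day-6 libraries 1, 2 and 3, and -0.30, -0.11 and -0.15 in day-1 libraries. Without library 3 the median log2 fold change was 0.10, with 25 of 33 genes above 0. Without library 2 it was 0.64 over 35 genes, since Oas3 and Mx1 then passed the filter on low counts. In that fit 7 of the 35 were called among 818 genes in all (edgeR). The whole table moved too: 26.3% of all genes had an unadjusted p under 0.05, against 9.7% with all libraries. Of the 7, Ddx58, Isg15, Trim25, Ifit2, Rsad2 and Samd9l were also tested with all libraries. The 7th, Oas3, had 30, 3 and 15 counts on day 6 and 1, 2 and 1 counts on day 1, and it passed the filter only through the libraries where it is high, so nothing is read from its call. Libraries 1 and 3 of day 6 also held more RNA of 8 genes listed as meningeal markers, at 669 and 604 CPM, against 196 CPM in library 2 and 169, 499 and 249 CPM on day 1. These genes summed to between 2175 and 2834 CPM in paw libraries, so the sum is not read as a level of meninges. The 6 fibroblast markers summed to 1326, 307 and 1163 CPM in day-6 cord libraries 1, 2 and 3, and to 301, 789 and 453 CPM on day 1. The 10 muscle genes summed to 189, 583 and 1212 CPM on day 6 and to 419, 265 and 244 CPM on day 1. Neutrophil markers summed to 362, 55.3 and 88.6 CPM in day-6 libraries 1, 2 and 3, and to 14.7, 16.3 and 29.3 CPM on day 1. Their part in the result was not tested.

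**Figure D4:**
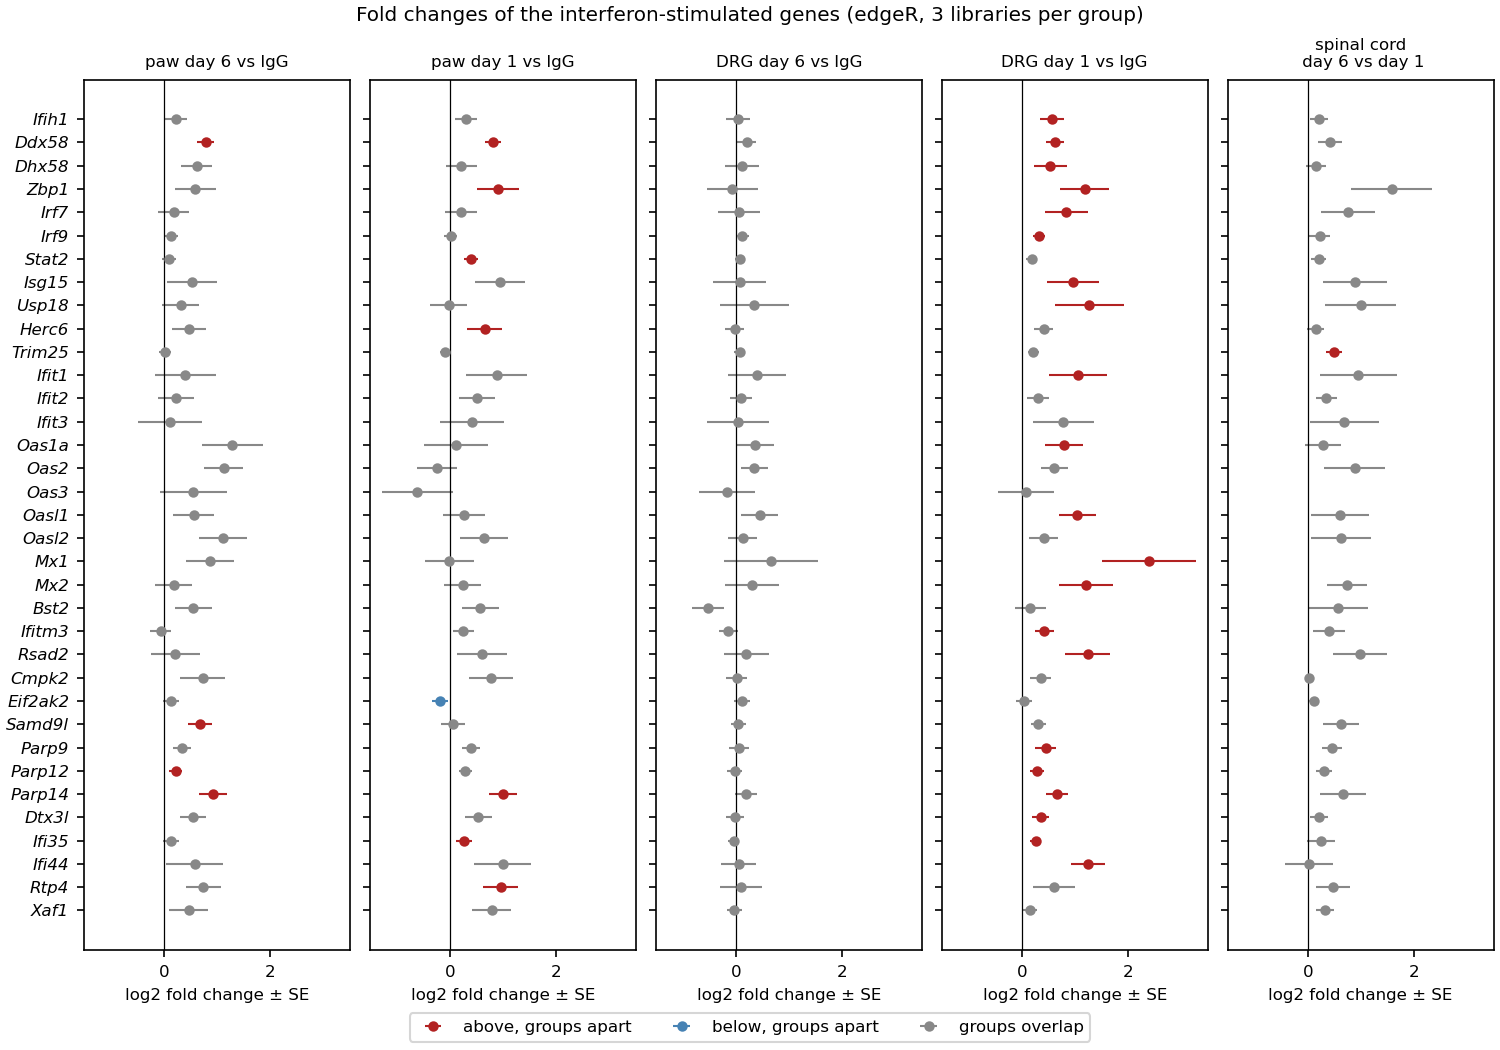
Log2 fold changes with their standard errors (edgeR, 3 libraries per group) of the interferon-stimulated genes for day 6 and day 1 over IgG in paw skin and DRG and for day 6 over day 1 in spinal cord. Red points have all libraries of the first group above the second, blue points below, and grey points overlap: 21 of 35 are red for day 1 in DRG and 4 of 35 for day 6 in paw.

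Among agonist groups the spread between libraries was wide for these genes. The median over the genes of the SD of log2 CPM within a group was 0.33 in day-6 DRG, 0.40 in day-1 DRG and 0.14 in IgG DRG, against 0.11, 0.10 and 0.11 over all genes in these groups. In paw it was 0.41 on day 6, 0.37 on day 1 and 0.32 with IgG, against 0.17, 0.18 and 0.22 over all genes. In spinal cord it was 0.58 on day 6 and 0.18 on day 1, against 0.15 and 0.09 over all genes.

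The paw and DRG responses were also set against each other, as the paw effect minus the DRG effect in a fit of 18 libraries taken as independent, although the labels do not say whether paw and DRG libraries come from the same animals. On day 6, 32 of 35 genes had a larger log2 fold change over IgG in paw than in DRG, against 48.9% of all genes, with a median difference of 0.27. The adjusted p called 0 of 35, where 0.498% of all genes were called (edgeR), and limma voom and DESeq2 called 0 too. At p under 0.05 before adjustment, 3 of 35 were larger in paw, against 4.93% of all genes, and 0 smaller, against 2.81%. These were Ddx58, with a difference of 0.58 ± 0.24 (adjusted p = 0.547), Bst2, with 1.07 ± 0.47 (adjusted p = 0.584), and Samd9l, with 0.63 ± 0.29 (adjusted p = 0.620). Without day-6 library 1 of DRG the median difference was 0.68, and leaving out any other library gave 0.16 to 0.51. On day 1, 12 of 35 genes had a larger log2 fold change in paw, against 51% of all genes, and the median difference was -0.24. Here the adjusted p called 0 of 35 and 0% of all genes (edgeR). Limma voom and DESeq2 also called 0 of 35, with 0 and 59 called over all genes. At an unadjusted p under 0.05 (edgeR), 0 of 35 were larger in paw, against 3.82% of all genes, and 1 was smaller, against 5.87%. The smaller was Mx1, with a difference of -2.42 ± 0.97 (adjusted p = 0.451). The median difference on day 1 was 0.07 without day-1 library 2 of DRG, -0.02 without IgG library 3 of paw and -0.04 without day-1 library 3 of paw.

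Genes around the pathway were followed from lists of the receptors and kinases, of nucleic acid sensing, and of other interferon-stimulated genes. Among 13 receptor and JAK-STAT genes, edgeR called 1 in any comparison, Ptpn6, a phosphatase of blood cells, with 33.5 ± 3.4 CPM in day-6 paw and 21.5 ± 0.3 CPM in day-1 paw (SD, n = 3 each), a log2 fold change of 0.64 ± 0.11 (adjusted p = 0.0433, edgeR, where 1.03% of all genes were called). In that comparison limma voom and DESeq2 each called Ptpn6 higher and Jak2 lower, among 623 and 737 genes called in all. For day 6 over IgG in paw, limma voom called Ptpn6 higher, and DESeq2 called Ifnar1, Ifngr2 and Ptpn6 higher and Jak2 lower. Over all genes limma voom called 129 and DESeq2 called 509 there. For day 1 over IgG in DRG, DESeq2 called Ifngr1 and Ifngr2, among 131 genes in all. Limma voom called 0 of the list, with 19 called over all genes. Of 16 genes of nucleic acid sensing and interferon induction, 4 were called higher in day-6 paw than in IgG paw, against 0.706% of all genes in either direction, and limma voom and DESeq2 called the same 4. Tlr7, the receptor for single-stranded RNA, had 18.2, 14.2 and 11.3 CPM on day 6, 4.02, 4.46 and 3.56 CPM on day 1 and 3.22, 4.85 and 5.07 CPM with IgG in paw, a log2 fold change on day 6 of 1.73 ± 0.23 (adjusted p = 0.0209). The others were Irf8 at 1.41 ± 0.20 (adjusted p = 0.0256), Irf5 at 0.52 ± 0.08 (adjusted p = 0.0314) and Tlr9, the receptor for unmethylated DNA, at 1.54 ± 0.26 (adjusted p = 0.0406). Against day 1, Tlr7 and Tlr9 were called higher on day 6, at 1.86 ± 0.23 (adjusted p = 0.0202) and 2.04 ± 0.26 (adjusted p = 0.0204). Irf8, Tlr7 and Tlr9 are made by immune cells, and the macrophage sums given for day-6 paw moved with them, and their part was not tested. For Tlr7 the day-6 effect was larger in paw than in DRG by 1.88 ± 0.34 (adjusted p = 0.0243).

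Of 61 other interferon-stimulated genes listed, 57 could be tested in paw, 59 in DRG and 52 in the cord, and 0 were called in any comparison (edgeR). Limma voom called up to 2 (Epsti1 and Slfn8, day 6 over day 1 in paw), among 623 genes called in all. DESeq2 called up to 6 (Ddx60, Epsti1, Ifi203, Psmb8, Psmb9 and Sp100, day 6 over IgG in paw), among 509 called in all. In paw, 51 of 57 had a log2 fold change above 0 on day 6 and 45 of 57 on day 1 relative to IgG, and at an unadjusted p under 0.05, 19 were higher on day 6 (against 6.12% of all genes) and 15 on day 1 (against 4.01%), and 0 were lower on either day (against 3.62% and 6.63%). The smallest p on day 6 belonged to Epsti1, Sp100 and Ddx60. On day 1 it belonged to Irf1, a factor shared by interferon gamma and NF-κB signalling, at a log2 fold change of 1.31 ± 0.24 (adjusted p = 0.326), Psmb8, an immunoproteasome subunit, at 1.04 ± 0.26 (adjusted p = 0.357), and Gbp6, a guanylate-binding protein, at 1.93 ± 0.49 (adjusted p = 0.357). In DRG on day 1, 56 of 59 were above 0, 10 were higher at an unadjusted p under 0.05 (against 4.66% of all genes) and 0 lower (against 2.74%). In this comparison limma voom called Ly6e and DESeq2 called Cxcl10 and Ly6e, among 19 and 131 genes called in all. Cxcl10, a chemokine that attracts T cells, had 6.00, 2.66 and 2.67 CPM in day-6 DRG, 18, 63.1 and 18.1 CPM in day-1 DRG and 7.47, 2.77 and 3.77 CPM in IgG DRG, a log2 fold change on day 1 of 2.85 ± 0.72 (adjusted p = 0.373). Day-1 library 2 was again the highest, and its other day-1 libraries also lay above IgG. Ly6e had 96.0, 78.7 and 74.8 CPM on day 6, 123, 136 and 105 CPM on day 1 and 78.7, 72.1 and 79.8 CPM with IgG, a log2 fold change on day 1 of 0.66 ± 0.11 (adjusted p = 0.0620). On day 6 in DRG, 31 of 59 were above 0 relative to IgG and 5 of 59 relative to day 1, with 1 (against 1.72% of all genes) and 11 (against 4.03%) lower at an unadjusted p under 0.05 and 0 higher. In spinal cord 43 of 52 were above 0, with 10 higher (against 5.39% of all genes) and 2 lower (against 4.31%) at an unadjusted p under 0.05.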

How the data were processed

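Each library has 1 file of whole-number counts of reads by gene, which the authors deposited without normalisation. Per the labels' protocols, about 500 ng of RNA went into a stranded polyadenylated RNA kit, read as 50 bp single reads. The submitters' processing notes name bcl2fastq, TopHat2, HTSeq and the mm9 build; their versions, annotation and strand setting are not given in the sources used here. Per the file headers, 5 summary lines per file are not genes and were removed. Reads that map to more than 1 place are not counted, so Ifit1, Ifit3, Oas1a, Oasl1, Oasl2, Mx1, Mx2 and Ifitm3, which have close copies, may read low; overlapping genes are uncertain likewise.

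Groups follow the labels (24 libraries, 8 groups of 3), which do not say that samples are separate animals, so the p-values cover only the spread between samples, which may be technical. Of 24 replicate pairs, 0 held identical values. Counts were tested over all genes within each tissue with the edgeR 4.0.16 quasi-likelihood F test (TMM, default filter on low counts, robust dispersions, 2-sided; R 4.3.3, limma 3.58.1), with Benjamini-Hochberg adjustment over all genes and a threshold of 0.05. CPM were computed on TMM-scaled library sizes; errors are SD for CPM and SE for log2 fold changes. Centred log2 CPM used a prior count of 2. Alternatives were leaving out each library, fitting only the 2 groups of a comparison, blocking on the replicate number, DESeq2 1.42.0, limma voom with sample weights, RLE scaling, no filter, and keeping genes above 1 CPM in 3 or more libraries. The pipeline was tested on simulated data. The genes and lists were chosen with earlier results of these data known. Values in every library are given for the 6 genes with the smallest p in each comparison within a tissue and for genes named for their role; Oas3 and Mx1 in spinal cord and Cxcl10, Ly6e and Tlr7 by library were added after their values were seen.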

Additional observations from a re-analysis of the deposited data

How the results depend on the processing

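Counts of interferon-stimulated genes called were the same as in the main test for 124 pairs of a comparison and an alternative, and differed for 7. With DESeq2, 2 were called on day 6 and 2 on day 1 against IgG in paw, and 1 on day 6 against day 1 in paw. In DRG it called 3 on day 1 against IgG and 2 on day 6 against day 1. In these comparisons edgeR called 0. Over all genes, in the same order, DESeq2 called 509, 209, 737, 131 and 106, and edgeR called 108, 1, 157, 26 and 16. The cause was not tested. For day 6 against day 1 in paw, between 0 and 1 were called with 1 library left out. This was Oas2 without day-6 library 3 (adjusted p = 0.0452, edgeR), among 141 genes called in all. Its adjusted p ran from 0.0167 to 0.520 over the alternatives. Leaving out 1 library gave between 0 and 7 called for day 6 against day 1 in spinal cord (7 without day-6 library 2, among 818 called in all). In the other comparisons it gave 0. Fitted signs of these uncalled genes turned with single libraries: 20 of 35 did on day 6 against IgG in DRG without day-6 library 1 (Oas1a had a log2 fold change of -0.24, against up to 0.63 with any other library left out), and 14 of 35 on day 6 against day 1 in paw without day-1 library 2. The median difference between paw and DRG on day 6 was 0.68 without day-6 library 1 of DRG, against 0.27. In DRG on day 6 against IgG, limma voom gave a median of 0.00 with 14 of 35 genes above 0.

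With the replicate number as a block, 0 genes of the group were called in any of the 9 comparisons, as without it. Within a tissue, libraries of the same number did not deviate together: the correlation of their deviations was above 0.1 in 3 of 9 pairs in paw, 2 of 9 in DRG and 0 of 3 in spinal cord. Across these tissues, a paw and a DRG library with equal group and number had a correlation above 0.1 in 6 of 9 pairs (-0.06 to 0.53). Pairs of equal group and unequal number ran from -0.48 to 0.41, so the ranges overlapped. The labels do not say whether the libraries of a pair with equal group and number share an animal. With each such pair as a block, an alternative chosen after seeing the data, 0 of 35 genes differed between paw and DRG by adjusted p on either day, and the median difference was 0.40 on day 6 and -0.15 on day 1. With 3 libraries per group, and with the wide spread of these genes in agonist libraries, the medians moved when a single library was left out: between 0.25 and 0.70 on day 6 and between 0.20 and 0.49 on day 1 against IgG in paw.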
